A study of Mus musculus with 4 samples.

Results

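The genes described here are 31 genes of brain macrophages, taken by symbol from tables of 25044 entries. They comprise 23 genes that mark homeostatic microglia, the 3 genes of complement C1q, and 5 genes that mark border macrophages (Mrc1, Cd163, Lyve1, Pf4 and F13a1). The genes are a list of names with no threshold on level, and all 31 were found and kept at a mean of at least 0.1 FPKM. FPKM is a level scaled for transcript length and for library size.

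The 4 libraries, replicates 1 to 4, were total RNA from the parasubthalamic nucleus (PSTh) of naive C57BL/6 mice. The PSTh is a small glutamatergic cell group at the back of the lateral hypothalamus, and the stated aim was to look for molecules behind lasting overactivity of its neurons after stress. All 4 libraries form 1 group with no treatment, transgene or stressed animals, so the comparisons are between genes within a library and between libraries. The sources give neither age nor sex, and do not say whether each library came from a separate animal or from pooled tissue. The p-values therefore measure only the spread between these 4 samples, which may be technical.

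Microglia are the resident macrophages of brain tissue. They live on signals through the receptor CSF1R, hold their identity through transcription factors such as PU.1 and SALL1, and sense neurons and injury through CX3CR1 and purine receptors. Border macrophages line the meninges, the perivascular spaces and the choroid plexus, and are marked by the mannose receptor MRC1 and other scavenger receptors. In the healthy brain microglia are also a main source of C1q, the recognition molecule of the classical complement pathway.

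PU.1, encoded by the member Spi1, binds purine-rich sites with a GGAA core, and IRF8 binds related elements, so the members' promoters were searched for letters of this kind. RefSeq promoter windows of the GRCm38.p6 assembly, from 250 bases before to 50 after a gene's start, were found for 23 of the 31 members. The 8 others, Tmem119, Csf1r, C1qa, Tyrobp, Gpr34, Selplg, Spi1 and Lyve1, were not searched. The letters GAGGAA (the PU box), on either strand, were present in a window of 15 of the 23 members, against 31.3% of the 27025 genes with a window. The IRF element (GAAA, 2 bases of any kind, GAAA) was present for Aif1 and Ctss, against 3.99% of genes, and the ETS-IRF composite (GGAA, 2 bases of any kind, GAAA) for Cd68 alone, against 3.16% of genes. The Cd68 composite overlaps one of its PU boxes. A match describes the letters only and was not tested as a binding site.

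The 4 stretches of 150 bases below, from 120 bases before the start to 30 bases from it, were chosen after the matches were seen. They show the highest member, Ctss, with an IRF element and a PU box, the purine receptor gene P2ry13, the integrin gene Itgam with a PU box on each strand, and the border macrophage gene Pf4. Capitals mark the matches, TTCCTC being GAGGAA on the other strand, and each sequence reads 5′ to 3′ along the gene's own strand. The intervals are chr3:95526666-95526815 (plus strand) for Ctss, chr3:59210853-59211002 (minus strand) for P2ry13, chr7:128062520-128062669 (plus strand) for Itgam and chr5:90772315-90772464 (plus strand) for Pf4.
Ctss: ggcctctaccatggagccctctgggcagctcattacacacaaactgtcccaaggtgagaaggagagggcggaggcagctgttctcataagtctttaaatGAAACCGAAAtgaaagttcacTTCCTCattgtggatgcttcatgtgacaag
P2ry13: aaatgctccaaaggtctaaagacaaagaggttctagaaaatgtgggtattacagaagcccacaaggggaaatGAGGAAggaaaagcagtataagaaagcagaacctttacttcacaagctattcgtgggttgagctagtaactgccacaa
Itgam: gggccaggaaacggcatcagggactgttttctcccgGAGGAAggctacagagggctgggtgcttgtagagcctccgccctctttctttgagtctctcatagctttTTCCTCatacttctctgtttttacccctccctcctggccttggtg
Pf4: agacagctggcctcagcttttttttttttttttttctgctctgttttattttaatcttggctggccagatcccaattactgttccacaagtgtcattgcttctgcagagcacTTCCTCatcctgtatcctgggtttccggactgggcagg

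Summed FPKM ranged from 428612 to 442836 per library, and the steps between the lowest values implied roughly 19.4 to 21.0 M fragments. Only 34.8 to 40.3% of low values fell within 0.1 of a whole step, so read counts could not be recovered and no counting interval is given. Most tissue markers were high, with the PSTh marker genes Calb2 at a mean of 178, Slc17a6 at 80.0, Tac1 at 75.5 and Adcyap1 at 39.8 FPKM, and markers of neurons (Snap25 at 1133, Stmn2 at 227, Syt1 at 153), astrocytes (Gfap at 94.8, Gja1 at 85.9, Slc1a3 at 71.7) and oligodendrocytes (Mbp at 4560, Cnp at 344). The other PSTh markers, Foxa1 (5.08 FPKM) and Barhl1 (1.98 FPKM), were lower. Several genes that mark blood leukocytes were low, but not all. Ms4a1, Ly6g, Retnlg and Plac8 were listed at 0 in all 4 libraries, and Cd3e had a mean of 0.0855 and Ccr2 of 0.122 FPKM. The leukocyte genes Ly6c2 (mean 1.54), S100a9 (0.326) and Jchain (0.2998 FPKM) were above the border gene Lyve1 (0.275 FPKM). Transcripts of blood cells were therefore present at levels like those of the lowest border gene.

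**Figure D1:**
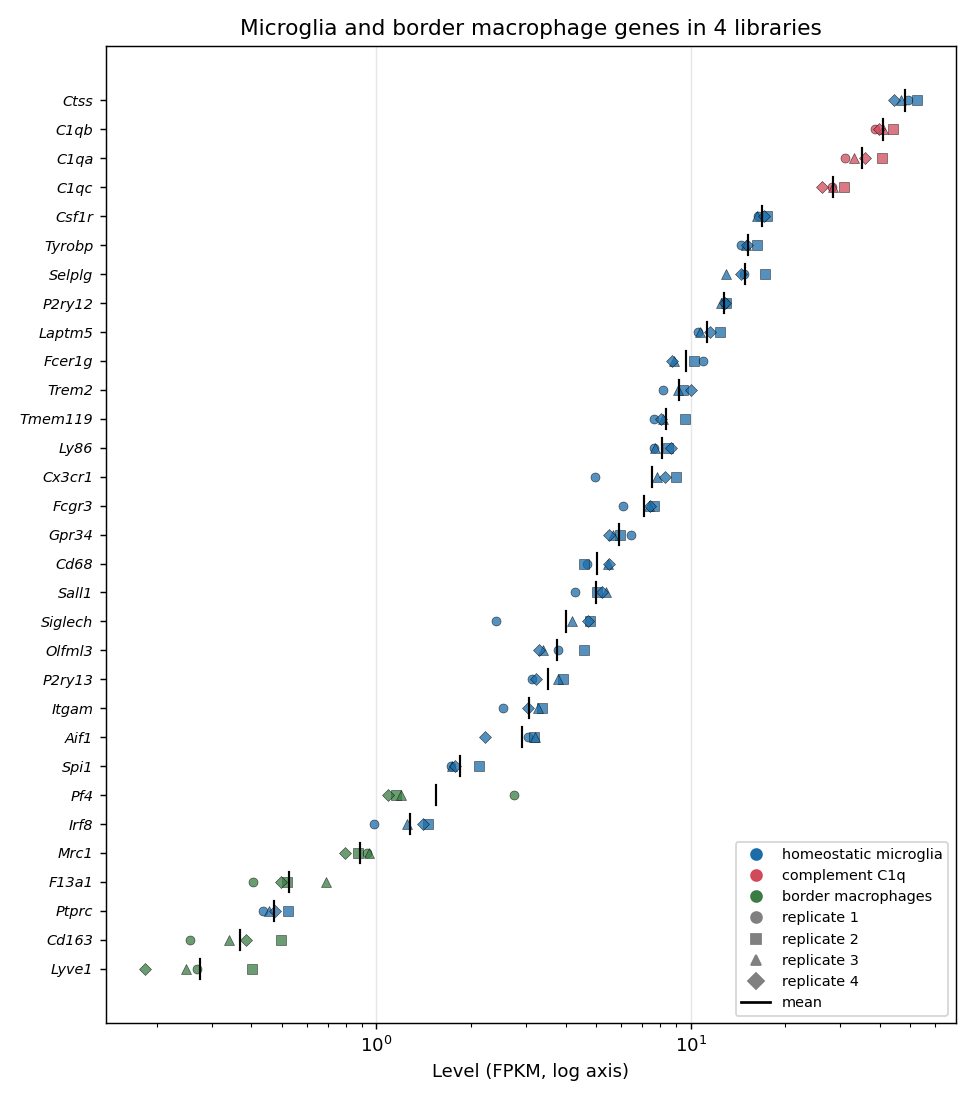
Level of each of the 31 genes in the 4 libraries, on a log axis of FPKM, ordered by mean. Symbols stand for the replicates, the black line for the mean, and colours for the lists. The genes run from Ctss at a mean of 48.2 FPKM down to Lyve1 at 0.275 FPKM, and 4 of the 5 border macrophage genes lie under 1 FPKM.

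The 31 genes covered a wide range of levels. Of these, 9 had a mean of at least 10 FPKM, 17 lay from 1 to 10 and 5 lay under 1, and none was at 0 in any library. Their median level stood at the 53.6th percentile of the 17630 genes kept. The summed level of the 23 microglia genes was 197 to 223 FPKM, that of the 3 C1q genes 97.7 to 116 FPKM, and that of the 5 border genes 2.95 to 4.60 FPKM. In bulk tissue, fewer cells of a type and less RNA per cell cannot be told apart. Of the 30 pairs of neighbours in the order of means, 20 had overlapping ranges, and 14 pairs kept the same order in all 4 libraries.

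Among receptors that sense the tissue, P2ry12, the ADP receptor that steers microglial processes to injury, was the highest. Its level in replicates 1 to 4 was 12.9, 12.9, 12.5 and 12.9 FPKM (12.8 ± 0.220, SD, n = 4), the smallest relative spread of any member. Its neighbour P2ry13, a related ADP receptor, was at 3.12, 3.92, 3.79 and 3.22 FPKM. P2ry12 was 3.29 to 4.13 times P2ry13 in every library, with no overlap. Both lie on chromosome 3 (P2ry13 at 59207892 to 59210882, P2ry12 at 59216272 to 59262871, minus strand) within the oppositely oriented Med12l, which shares 9 exon bases with P2ry12. Cx3cr1, the receptor for the neuronal chemokine fractalkine, was at 4.98, 8.99, 7.83 and 8.29 FPKM (7.52 ± 1.76). Replicate 1 stood below the other 3 libraries. Cx3cr1 shares 78 of its 4505 exon bases with Gm33858 on the other strand, for which no level is listed. Gpr34, a receptor for lysophosphatidylserine, was more even at 6.47, 5.95, 5.66 and 5.51 FPKM, with replicate 1 the highest.

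Csf1r, the survival receptor of microglia, was at 16.4, 17.6, 16.2 and 17.1 FPKM (16.8 ± 0.608). The libraries lay close together, and Csf1r was above Cx3cr1 in all 4. It shares 873 of its 5774 exon bases with Hmgxb3 on the other strand (mean 4.58 FPKM), and whether counting used strand is not given in the sources used here, so some of its reads cannot be told apart from that gene's. The transcription factor genes were lower: Sall1, which maintains microglial identity, was at 4.30, 5.05, 5.40 and 5.22 FPKM. Spi1 was at 1.73, 2.12, 1.74 and 1.78 FPKM. Irf8 was at 0.982, 1.46, 1.25 and 1.41 FPKM. Sall1 did not overlap Spi1, and Spi1 did not overlap Irf8, which was lowest in replicate 1.

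C1q is built from 3 chains whose genes lie side by side on the minus strand of chromosome 4, C1qb at 136880129 to 136886187, C1qc at 136889804 to 136893065 and C1qa at 136895917 to 136898803 (GRCm38). C1qb was at 38.5, 44.3, 41.0 and 39.9 FPKM (40.9 ± 2.45). C1qa was at 30.97, 40.6, 33.0 and 35.9 FPKM (35.1 ± 4.17). C1qc was at 28.2, 30.8, 28.5 and 26.2 FPKM (28.4 ± 1.88). All 3 were highest in replicate 2, and the order C1qb, C1qa, C1qc held in every library. Within libraries, C1qa was 0.804, 0.918, 0.805 and 0.900 times C1qb. C1qc was 0.733, 0.695, 0.694 and 0.657 times C1qb. In a limma fit of log2(FPKM + 0.1) differences over all 17629 other genes, with Benjamini-Hochberg adjustment, C1qa was 0.23 below C1qb (SE 0.07, adjusted p = 0.025) and C1qc 0.52 below it (SE 0.06, adjusted p = 0.000477). In that fit 88.4% of all genes passed as lower than C1qb and 8.56% as higher. The call for C1qa was lost without replicate 1, without replicate 3 and without replicate 4, at log2 differences of -0.20, -0.20 and -0.25.

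Tyrobp (DAP12) is the adaptor through which TREM2 and Siglec-H signal, and Fcer1g is the related adaptor of Fc receptors. Tyrobp was at 14.5, 16.2, 15.1 and 15.2 FPKM (15.2 ± 0.728). Trem2, a lipid-sensing receptor, was at 8.17, 9.49, 9.13 and 10.01 FPKM, with no overlap with Tyrobp. Fcer1g was at 10.9, 10.3, 8.84 and 8.75 FPKM. Siglech was at 2.40, 4.77, 4.18 and 4.72 FPKM, with replicate 1 below the others. In the limma fit against Tyrobp, where 71.2% of all genes passed as lower, Trem2 differed by -0.72 (SE 0.06, adjusted p = 0.000169), Fcer1g by -0.65 (SE 0.09, adjusted p = 0.000951) and Siglech by -1.94 (SE 0.17, adjusted p = 0.000154) on the log2 scale. On values multiplied by transcript length, Trem2 was above Tyrobp (2.26), the call for Siglech was lost (-0.024), and Fcer1g still passed as lower (-0.46). Siglech was 0.166 times Tyrobp in replicate 1 and 0.278 to 0.312 times in the other libraries. Fcgr3, an activating IgG receptor that uses Fcer1g, was at 6.11, 7.62, 7.39 and 7.40 FPKM, lowest in replicate 1.

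Ctss, the lysosomal protease cathepsin S, was the highest member at 49.1, 52.6, 46.7 and 44.3 FPKM (48.2 ± 3.53). Its range did not overlap that of C1qb, the next gene. Laptm5, a lysosomal membrane protein of blood-lineage cells, was at 10.5, 12.4, 10.7 and 11.6 FPKM, and Cd68, a lysosomal glycoprotein of macrophages, at 4.69, 4.58, 5.46 and 5.49 FPKM. Ly86 (MD-1), which binds a Toll-like receptor homologue, was at 7.68, 8.49, 7.71 and 8.68 FPKM. None of these 4 genes varied between libraries by as much as 1.5 times.

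Selplg, the selectin ligand PSGL-1, was at 14.8, 17.3, 12.9 and 14.5 FPKM (14.9 ± 1.81). Tmem119, a membrane protein used to tell microglia from other macrophages, was at 7.66, 9.60, 8.19 and 8.07 FPKM. Olfml3, a secreted matrix protein, was at 3.79, 4.57, 3.39 and 3.29 FPKM. All 3 were highest in replicate 2. Itgam, the CD11b chain of complement receptor 3, was at 2.54, 3.36, 3.28 and 3.04 FPKM. Its annotation shares 3450 of 5024 exon bases with Gm49368 on the same strand, whose mean was 0.000576 FPKM. Aif1 (IBA1), the actin-binding protein most used to stain microglia, was at 3.03, 3.18, 3.19 and 2.22 FPKM, with replicate 4 below the others. Ptprc (CD45), which microglia carry at a low level relative to blood leukocytes, was at 0.437, 0.523, 0.454 and 0.474 FPKM, the lowest of the 26 microglia and C1q genes.

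Against Cx3cr1, 9 of the 30 other genes were higher, 13 were lower and 8 did not pass. Over all 17629 genes tested by the same limma fit, 31.9% passed as higher and 49.2% as lower, so the counts among these genes lie close to those of genes in general. The median log2 difference from Cx3cr1 was -0.42 over the 30 genes and -0.59 over all genes tested. Every difference subtracts the same Cx3cr1 values, whose SD of log2 levels was 0.377. The standard errors and p-values therefore share that spread and are not independent of each other. By list, 6 microglia genes were higher and 8 lower of 22, all 3 C1q genes were higher, and all 5 border genes were lower. With Csf1r as the reference, chosen after seeing the data, 4 members were higher and 25 lower, against 20.9% and 73.6% of all genes. With P2ry12, 7 were higher and 23 lower, against 26.4% and 67.4% of all genes.

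**Figure D2:**
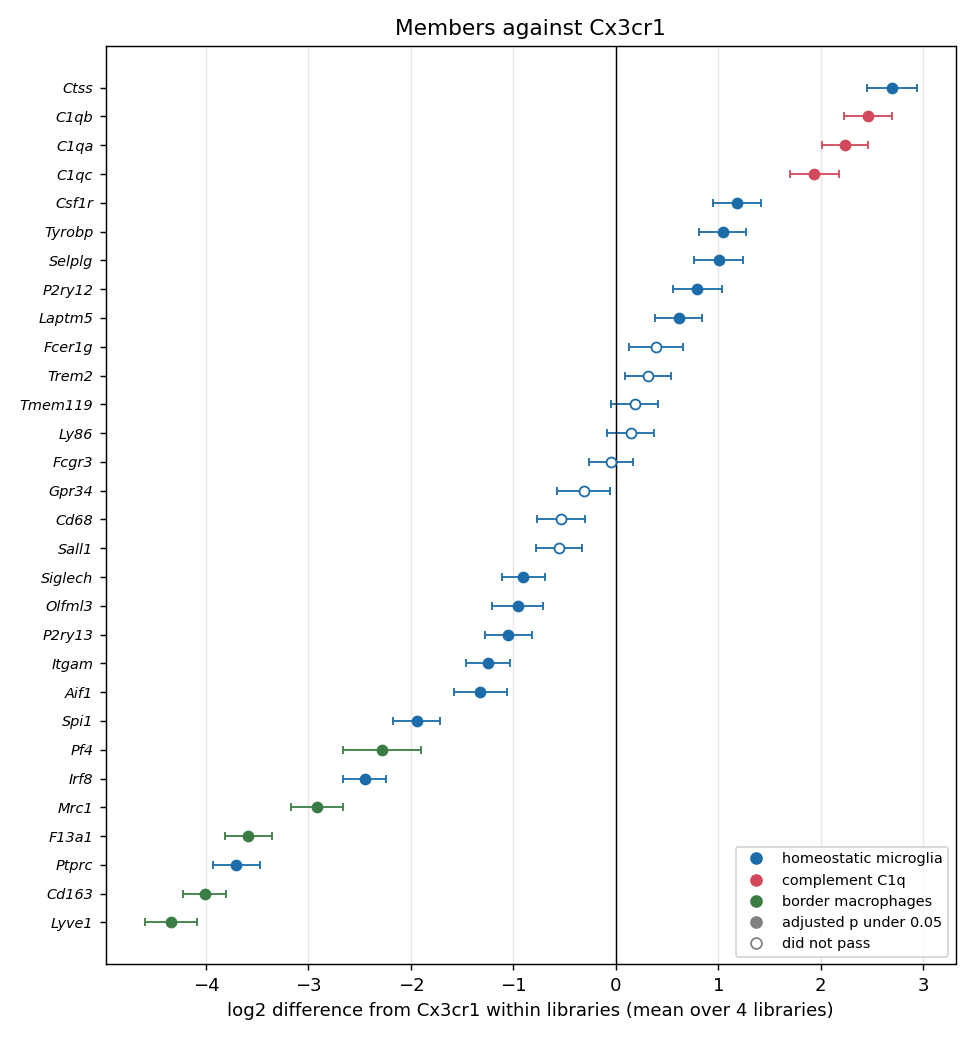
Log2 difference of each gene from Cx3cr1 within libraries, on log2(FPKM + 0.1), as the mean over 4 libraries with bars of 1 standard error from the limma fit. Colours stand for the lists and open circles for genes that did not pass. Ctss stands highest at 2.69 and Lyve1 lowest at -4.34.

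The higher genes were led by Ctss at 2.69 (SE 0.24, adjusted p = 4.53e-05), C1qb at 2.46, C1qa at 2.23 and C1qc at 1.94 on the log2 scale. Csf1r followed at 1.18 (SE 0.24, adjusted p = 0.0026), then Tyrobp at 1.04 (adjusted p = 0.0045) and Selplg at 1.00 (adjusted p = 0.0065). The purine receptor gene P2ry12 was 0.79 above Cx3cr1 (SE 0.24, adjusted p = 0.0183) and Laptm5 0.61 above it (SE 0.23, adjusted p = 0.0402). P2ry12 did not pass without replicate 3 or without replicate 4, and Laptm5 did not pass without replicate 2, 3 or 4. On values multiplied by the longest transcript length, only Ctss (0.98) and Csf1r (1.26) passed as higher than Cx3cr1, where 29.2% of genes did. As lower, 20 members passed, where 50.1% of genes did. The lengths behind the deposited values are not known, so the per-length scale may be undone only in part. The calls of C1qb (0.43), C1qa (0.14), C1qc (0.049) and Selplg (0.055) were lost in that setting, and Tyrobp (-1.85), P2ry12 (-0.14) and Laptm5 (-0.17) had the opposite sign, Tyrobp passing as lower.

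The 8 genes that did not pass were Fcer1g (0.39), Trem2 (0.32), Tmem119 (0.18), Ly86 (0.14), Fcgr3 (-0.05), Gpr34 (-0.31), Cd68 (-0.54) and Sall1 (-0.55), each given as its log2 difference from Cx3cr1. The nearest to the threshold were Sall1 (adjusted p = 0.0525) and Cd68 (adjusted p = 0.0718), which passed as lower without replicate 1, at -0.67 and -0.69. Gpr34 did so too, at -0.54. On values multiplied by transcript length, Fcer1g (-2.31), Cd68 (-2.39), Fcgr3 (-1.77), Gpr34 (-1.42), Tmem119 (-0.81) and Ly86 (-0.59) passed as lower than Cx3cr1.

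Among the lower genes, Siglech differed from Cx3cr1 by -0.90 (SE 0.21, adjusted p = 0.00528), Olfml3 by -0.96, P2ry13 by -1.05, Itgam by -1.25 and Aif1 by -1.32 on the log2 scale. Olfml3 did not pass without replicate 4, at -0.84. The transcription factor genes followed, Spi1 at -1.94 (adjusted p = 0.000178) and Irf8 at -2.45 (adjusted p = 3.63e-05). Ptprc was at -3.70, among the border genes, which ran from Pf4 at -2.28 (SE 0.38) through Mrc1 at -2.92, F13a1 at -3.59 and Cd163 at -4.01 to Lyve1 at -4.34 (adjusted p = 1.04e-05).

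The border macrophage genes were low in all libraries. Mrc1, the mannose receptor (chromosome 2, 14229392 to 14332057), was at 0.933, 0.870, 0.948 and 0.793 FPKM (0.886 ± 0.0706). F13a1, the A chain of coagulation factor XIII, was at 0.405, 0.518, 0.692 and 0.498 FPKM. Cd163, the haemoglobin scavenger receptor, was at 0.255, 0.498, 0.338 and 0.385 FPKM. Lyve1, a hyaluronan receptor that lymphatic endothelium also carries, was at 0.269, 0.402, 0.247 and 0.183 FPKM. Pf4, the chemokine CXCL4, also made by platelets, was at 2.74, 1.15, 1.201 and 1.09 FPKM (1.54 ± 0.796). Replicate 1 was 2.52 times the lowest library, and the other 3 libraries lay close together. Pf4 is short, and its values correspond to only roughly 34, 14, 14 and 13 fragments, and those of Lyve1 to roughly 16, 24, 14 and 11. These are rough estimates from the steps between low values and the longest annotated transcript, as read counts could not be recovered.

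Against Mrc1 in the limma fit, Pf4 was higher by 0.64 on the log2 scale (SE 0.21, adjusted p = 0.03), in 4 of 4 libraries. F13a1 was lower by 0.67 (a difference of -0.67, SE 0.12, adjusted p = 0.00255), Cd163 differed by -1.09 (SE 0.16, adjusted p = 0.000793) and Lyve1 by -1.42 (SE 0.14, adjusted p = 0.000123). Of all genes 71.4% passed as higher than Mrc1 and 20.8% as lower. The difference of Pf4 from Mrc1 was 0.36 without replicate 1, where it still passed, and 0.71 without replicate 4, where it did not. On values multiplied by transcript length it was -2.36, with Pf4 passing as lower. Summed, the border genes were 2.33, 1.54, 1.71 and 1.45% of the microglia genes in FPKM. Without Pf4 the share was 0.943, 1.03, 1.11 and 0.916%, with replicate 1 inside the range of the others. Of 11 further border macrophage genes kept, 10 were higher in replicate 1 than in the mean of the other libraries. Their median log2 difference was 0.28, and 49.9% of all genes kept were higher there. The 12 genes of that list summed to 12.4, 10.8, 11.2 and 9.04 FPKM.

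The ligands of the member receptors were expressed in the same tissue. Cx3cl1, the fractalkine that binds CX3CR1, was at 77.0, 74.4, 93.9 and 82.6 FPKM (82.0 ± 8.66), 3.46 above Cx3cr1 on the log2 scale (adjusted p = 1.57e-05). The level of Cx3cl1 was 15.5, 8.27, 11.99 and 9.97 times that of Cx3cr1. Il34, the CSF1R ligand made mainly by neurons, had a mean of 14.4 ± 1.01 FPKM, and Csf1, the other CSF1R ligand, of 7.90 ± 0.817 FPKM. Il34 was 1.84 ± 0.298 times Csf1, and the ligands summed were 1.32 ± 0.0315 times Csf1r, a ratio that hardly varied between libraries. Itgb2, the CD18 chain that pairs with CD11b, had a mean of 1.82 ± 0.250 FPKM and was 0.598 ± 0.048 times Itgam. Cd200 and Sirpa, whose products take part in restraining signals between neurons and microglia, had means of 87.6 and 63.7 FPKM. The CD200 receptor gene Cd200r1 had a mean of 0.0748 FPKM, under the filter, and was not tested. Of the 10 ligand and partner genes tested, 5 were higher than Cx3cr1 and 4 lower, against 31.9% and 49.2% of all genes.

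Other genes of these cells were counted in the same fit, where 31.9% of all genes passed as higher than Cx3cr1 and 49.2% as lower. Of 25 other microglia genes, 3 were higher than Cx3cr1 (among them Rgs10 at a mean of 48.0 and Itgb5 at 14.9 FPKM), 19 were lower and 3 did not pass. Of 16 tested genes of activated microglia, 7 were higher and 8 lower, the highest being Apoe at 1382, Ctsd at 226 and Ctsb at 161 FPKM, which other brain cells also express. Of all 22 genes on that list, 10 had a mean of at least 1 FPKM, among them Spp1 (38.2) and Axl (13.2 FPKM). Only 1 of them, Tnf, was listed at 0 in all 4 libraries. All 11 tested further border macrophage genes were lower, led by Dab2 at 4.27, Stab1 at 1.51 and Cd36 at 1.33 FPKM. Of 11 complement genes beyond C1q, 8 were lower, none was higher and 3 did not pass, among them the complement inhibitors Cd59a (mean 10.8) and Serping1 (9.88 FPKM).

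**Figure D3:**
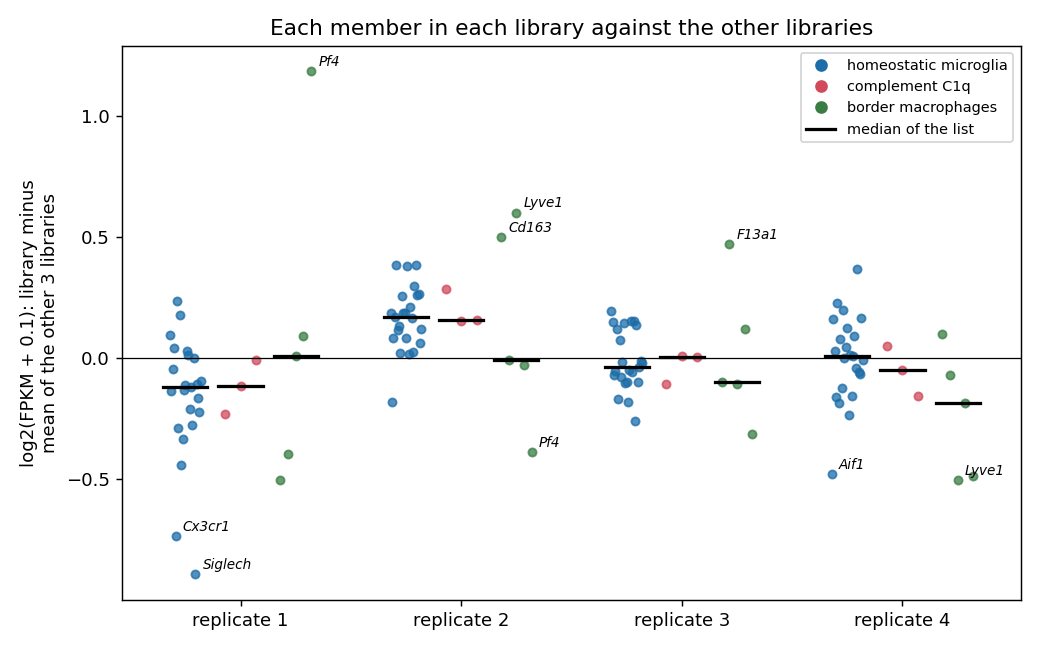
Difference of each gene in each library from its mean in the other 3 libraries, on log2(FPKM + 0.1), 1 point per gene, coloured by list, with a black line at the median of the list. The microglia genes have a median of 0.17 in replicate 2 and -0.12 in replicate 1, where Pf4 stands far above and Cx3cr1 and Siglech below the other genes.

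Between libraries most of the 31 genes varied little, about as genes of like level did. The highest library was under 1.5 times the lowest for 25 of 31 genes, and at least 2 times for Pf4 (2.52) and Lyve1 (2.20). That count was made for the members only, so it has no share of all genes beside it. The SD of log2 levels lay below the median of all genes kept for 20 of the 31. The median SD of log2 levels was 0.139 for the microglia genes, 0.095 for C1q and 0.313 for the border genes. Over all 31 genes it was 0.142, against 0.170 for all genes kept and 0.145 for the 5676 genes within the interquartile range of the members' levels. The border genes lie below most of those levels, and set against the variance limma's trend gives for genes of their own level, Mrc1 (0.119 times), Lyve1 (0.445), Cd163 (0.484) and F13a1 (0.497) varied less and Pf4 (5.64) more. By limma's variance test, 0 of the 31 genes and 0 of all 17630 genes (0%) varied more than genes of like level after adjustment. At unadjusted p under 0.05, 2 members were above that spread, Cx3cr1 and Siglech, against 5.85% of all genes. Both had an adjusted p of 0.812 in limma, and Pf4, the gene with the widest range, had an adjusted p of 0.878. With 4 libraries and 4.28 prior degrees of freedom, the variance test could call little. Ttr, whose highest library was 84.7 times its lowest, was not called either. The lack of calls therefore says little about the spread of the members.

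Replicate 2 was the highest library for 19 of the 26 microglia and C1q genes, and replicate 1 was the lowest for 16. Over all 17630 genes kept, replicate 2 was the highest for 29.1% and replicate 1 the lowest for 28.5%. Compared with the mean of the other libraries, the median log2 difference over these 26 genes was -0.12 for replicate 1 and 0.17 for replicate 2, with the other libraries at -0.03 and 0.01. Over all genes kept it was 0.04 in replicate 2, where 59.1% of genes were higher than in the other libraries, and close to 0 in replicate 1, where 49.9% were. Of the genes within the interquartile range of the members' levels, 61.2% were higher in replicate 2 and 49.2% in replicate 1. Under median-ratio scaling of the libraries the 26 genes were at -0.12 in replicate 1 and 0.14 in replicate 2. These shifts were not tested, as no label separates the libraries.

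**Figure D4:**
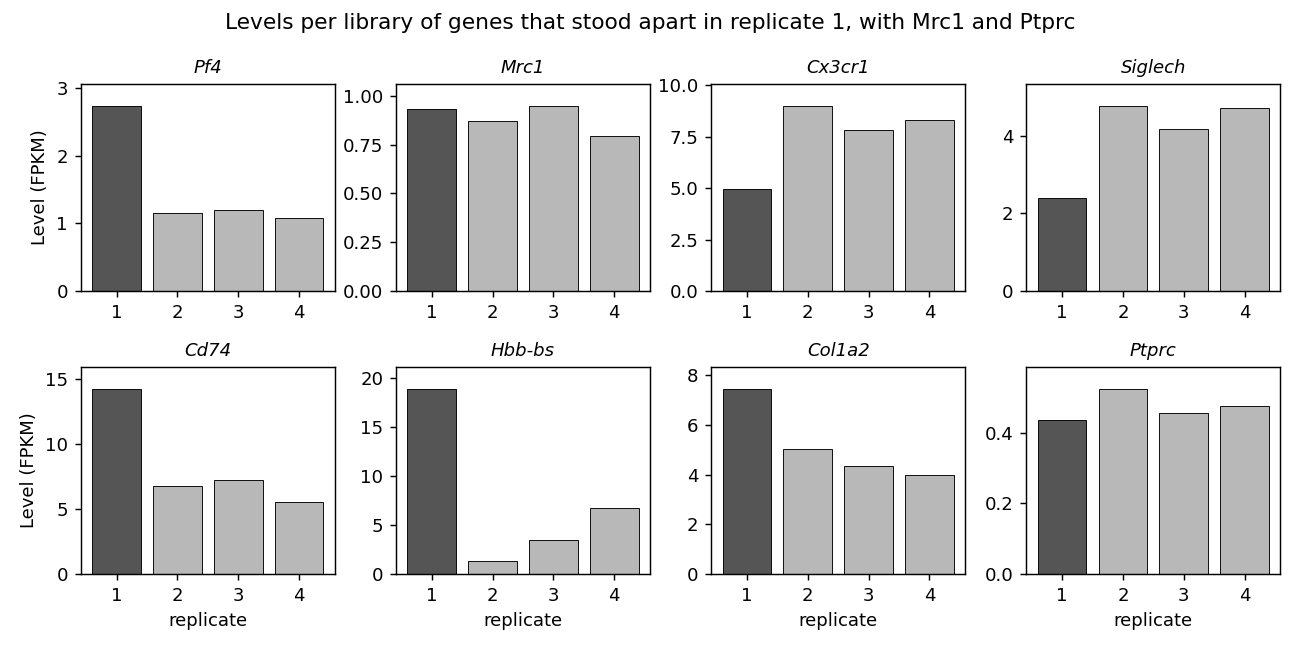
Level in FPKM of 8 genes in replicates 1 to 4, as bars from 0, each gene on its own axis and replicate 1 dark. Pf4, Cd74, Hbb-bs and Col1a2 are highest and Cx3cr1 and Siglech lowest in replicate 1, while Mrc1 at 0.933 FPKM lies within the range of the other libraries and Ptprc at 0.437 FPKM just under it.

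Replicate 1 had the lowest Cx3cr1, Siglech, Fcgr3 and Irf8, and the highest Pf4. Cx3cr1 was 0.303 times Csf1r in replicate 1 and 0.483 to 0.512 times in the other libraries, while Csf1r (16.4 FPKM) and P2ry12 (12.9 FPKM) in replicate 1 lay within the range of the others. Genes outside the member lists also differed in this library, and the cells that carry them were not determined. Cd74, the invariant chain of MHC class II, was at 14.2, 6.78, 7.20 and 5.56 FPKM, H2-Aa at 7.79, 4.28, 2.69 and 2.03 FPKM, and the list of 5 MHC class II genes summed to 33.6 against 12.6 to 17.5 FPKM. The 5 red cell genes summed to 44.4, 2.75, 10.5 and 15.3 FPKM, led by Hbb-bs at 18.9, 1.33, 3.50 and 6.78, with Hba-a1 and Hba-a2 also highest in replicate 1. Col1a2, a collagen gene of fibroblasts, was at 7.44, 5.03, 4.33 and 3.97 FPKM. The 8 mural and fibroblast genes, led by Rgs5 (mean 32.7), Acta2 (20.1) and Dcn (20.1 FPKM), had a median of 0.59 above the other libraries on the log2 scale, and the 5 oligodendrocyte genes of -0.46. The 6 PSTh marker genes were all higher in replicate 1 than in the mean of the others, with a median of 0.46, and 5 of them were highest there. Of the 5 platelet genes, Ppbp and Gp6 were listed at 0 in all libraries and the other 3 summed to 1.18, 1.24, 1.32 and 1.48 FPKM. Itga2b (0.552, 0.537, 0.310 and 0.482 FPKM) and Gp1bb (0.360, 0.272, 0.210 and 0.258 FPKM) were highest in replicate 1, and Gp9 (0.270, 0.431, 0.796 and 0.737 FPKM) was lowest there. Their median log2 difference in replicate 1 was 0.29. The part of the cells that carry these genes in the values of Pf4, Cx3cr1 and Siglech was not tested.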

How the data were processed

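RNA-seq of PSTh tissue from 4 libraries of 1 group was used, 1 deposited table per library. The values the authors deposited were read as FPKM per gene: neither labels nor headers name the unit, which was taken from how low values step with transcript length. Alignment was to GRCm38, per the submitters' processing notes; no source used here names the aligner, the counter, the annotation or a strand setting. Per the labels' protocols, a dual-mode mRNA library kit was used.

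Ensembl identifiers were matched to symbols and coordinates in GENCODE (GRCm38), 22022 of 22036 matched. Genes with a mean of at least 0.1 FPKM (17630) were analysed on log2(FPKM + 0.1) with limma 3.58.1 in R 4.3.3, the rest with Python 3.11.15. Each reference test (Cx3cr1, C1qb, Tyrobp, Mrc1) fitted an intercept to each gene's within-library difference from the reference, tested two-sided and adjusted by Benjamini-Hochberg across 17629 genes, at a threshold of 0.05. An exact sign-flip test over 4 libraries cannot go under 0.125, so none was used. Prior degrees of freedom were limited to those of a trended fit of the genes' own levels, 3.78. An untrended limit had been tried first and its calls seen, and the trended one was then taken to match an earlier processing of these data. The untrended values are among the alternatives. The spread test compared each gene's variance with a trended robust prior. The reference test with Cx3cr1 and the spread test were tried on simulated data, and the fits against C1qb, Tyrobp and Mrc1 were not. All 31 genes are named, with the 3 highest of the other lists where the text uses them; a few of these are not reported here. The members and lists were chosen with earlier results of these data known. Alternatives were the added value, the low-value filter, the scaling, the prior, the length of the longest annotated transcript, other reference genes and leaving out each library.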

Additional observations from a re-analysis of the deposited data

Results flagged for a closer look

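In 12 of 111 sets of 4 values, the highest or lowest library stood apart from the others by Dixon's 95% criterion, 8 times in replicate 1. Chance alone marks about 5% of sets, and the ratios share genes with the single values. Among the members, P2ry12 was low in replicate 3 at 12.5 FPKM, where the others lay at 12.9, Fcgr3 was low in replicate 1 at 6.11 FPKM, and Aif1 was low in replicate 4 at 2.22 FPKM. Spi1 was high in replicate 2 at 2.12 FPKM and Pf4 in replicate 1 at 2.74 FPKM.

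Among the ratios in replicate 1, Cx3cr1 over Csf1r was low at 0.303, P2ry12 over Cx3cr1 was high at 2.59 and Pf4 over Mrc1 was high at 2.93. Genes of other cells stood apart in the same library: Cd79a of B cells at 0.366 FPKM, and the neutrophil genes S100a8 at 0.689 and Ngp at 0.590 FPKM, where replicates 2 to 4 listed Cd79a and S100a8 at 0. The choroid plexus gene Ttr was high in replicate 4 at 49.7 FPKM, against 0.587 to 1.99 FPKM elsewhere.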

How the results depend on the processing

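No paired analysis was possible because the libraries form 1 group. With values multiplied by transcript length, 2 members were higher than Cx3cr1 and 20 lower, and the log2 differences from Cx3cr1 reversed for P2ry12 (-0.14), Tmem119 (-0.81), Tyrobp (-1.85), Fcer1g (-2.31), Laptm5 (-0.17) and Ly86 (-0.59), as did Trem2 against Tyrobp (2.26) and Pf4 against Mrc1 (-2.36). In that setting 1 adaptor partner was higher and 1 lower than Tyrobp, no border gene (0) was higher than Mrc1, and the members' median level was at the 38.6th percentile. With libraries rescaled over genes not encoded by mitochondria, the median level was at the 57.5th percentile. That rescaling raised all values while the filter stayed at 0.1, so more low genes entered the ranking. With other reference genes, added after seeing the data, 4 members were higher and 25 lower than Csf1r, and 7 were higher and 23 lower than P2ry12. Leaving out 1 library gave 7 to 9 members higher and 12 to 16 lower than Cx3cr1, 1 to 2 C1q chains lower than C1qb, and 0 to 1 border genes higher than Mrc1. Against Cx3cr1, neither past the threshold, Ly86 changed sign with 1 library left out (-0.012 without replicate 1, range -0.012 to 0.22), as did Fcgr3 (0.015 without replicate 2, range -0.16 to 0.015). Sall1 passed as lower than Cx3cr1 with added values of 1 and 0.01, a mean filter of 1 and the untrended prior limit, and Cd68 with an added value of 1 and a mean filter of 1. The reference test against Mrc1 was not run with a mean filter of 1 FPKM, under which Mrc1 falls. The spread test called 0 members in every setting, and 4 genes without replicate 3 and 8 without replicate 4. The cause of these changes was not tested, except that length scaling and fewer libraries change the values by construction, and rescaling under a fixed filter the percentile.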

Other observations

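Genes of other cell types that the members do not mark were measured beside them. Endothelial genes were led by Ly6c1 (mean 64.2), Cldn5 (34.9) and Slco1a4 (16.4 FPKM). Lymphatic endothelial genes were led by Prox1 (4.01), Pdpn (3.57) and Flt4 (0.766 FPKM), all also expressed by other brain cells. Monocyte genes were led by Nr4a1 (8.35), an immediate early gene of many cells, and Ly6c2 (1.54 FPKM), and Jchain of plasma cells had a mean of 0.2998 FPKM. Among T cell genes Lck had a mean of 0.967, Cd4 of 0.0935 and Cd3e of 0.0855 FPKM.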
